A study of Mus musculus with 9 samples.

Results

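The set of genes described here holds 10 chaperones and disulfide isomerases that fold proteins in the endoplasmic reticulum (ER): Hspa5, Hsp90b1, Calr, Canx, Pdia3, Pdia4, Pdia6, Dnajb11, Manf and Sdf2l1. They were chosen by symbol among the 55385 genes counted, and each of the 10 was found once. CITE-seq, an assay that counts transcripts together with antibody tags in single cells, was run on splenocytes that had been sorted with DAPI, a dye that enters dead cells. Mice were homozygous (R594C/R594C, 2 hashtag replicates), heterozygous (R594C/+, 4 replicates) or wild type (WT, 4 replicates) for the R594C change in IRE1, and the study asked whether this change alters the immune cells of the spleen. The sources used here do not state the strain, age or sex of the mice or any treatment. Whether a replicate is an animal of its own is not stated either, and a p-value below reflects no more than the spread between these replicates. Each genotype was a single droplet capture with its own staining, so an effect of genotype cannot be told apart from one of capture or staining.

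Proteins that enter the ER are held in solution by Hspa5 (BiP) and the HSP90 paralogue Hsp90b1, checked for their sugar chains by the lectins calreticulin (Calr) and calnexin (Canx), and given disulfide bonds by the Pdia enzymes. When unfolded protein builds up, the sensor IRE1 (gene Ern1) splices Xbp1 messenger RNA so that the transcription factor XBP1s is made, and the sensor ATF6 is cleaved into another factor. Both factors are known to raise transcription of ER folding genes, ATF6 mainly that of the large chaperones, through promoter sequences called ER stress response elements. Plasma cells, which secrete antibody, are known for an enlarged ER and for high levels of these proteins.

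The promoters are shown because the named elements of the pathway can be read in them. RefSeq's table for GRCm38.p6 held the stretch from 250 bases before to 50 bases after the start of 9 of the 10 genes, and Manf was not matched. Both strands were searched for 3 motifs: the ER stress response element (ERSE), its shorter form ERSE-II, and the unfolded protein response element (UPRE), TGACGTGG. The ERSE and ERSE-II can share letters where they meet, and no match found in these genes overlapped another. In the 5 sequences below, written 5′ to 3′ on the gene's strand, capitals mark the matched letters. Their windows are chr2:34771840-34772139, plus strand, for Hspa5; chr10:86705395-86705694, minus strand, for Hsp90b1; chr12:17266339-17266638, plus strand, for Pdia6; chr16:22857595-22857894, plus strand, for Dnajb11; and chr16:17132334-17132633, minus strand, for Sdf2l1, which is shown as a promoter with no match.
Hspa5: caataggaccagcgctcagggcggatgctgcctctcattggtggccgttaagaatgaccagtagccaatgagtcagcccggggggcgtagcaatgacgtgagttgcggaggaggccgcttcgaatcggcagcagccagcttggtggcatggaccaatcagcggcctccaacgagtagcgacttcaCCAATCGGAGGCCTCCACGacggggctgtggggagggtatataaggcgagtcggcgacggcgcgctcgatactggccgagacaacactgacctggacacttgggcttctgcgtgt
Hsp90b1: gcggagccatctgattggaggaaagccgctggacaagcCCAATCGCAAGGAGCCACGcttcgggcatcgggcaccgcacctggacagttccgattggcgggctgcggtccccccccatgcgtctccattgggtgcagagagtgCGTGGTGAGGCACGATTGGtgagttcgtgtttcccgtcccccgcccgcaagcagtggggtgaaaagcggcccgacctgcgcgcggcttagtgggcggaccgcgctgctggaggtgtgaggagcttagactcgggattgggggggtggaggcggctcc
Pdia6: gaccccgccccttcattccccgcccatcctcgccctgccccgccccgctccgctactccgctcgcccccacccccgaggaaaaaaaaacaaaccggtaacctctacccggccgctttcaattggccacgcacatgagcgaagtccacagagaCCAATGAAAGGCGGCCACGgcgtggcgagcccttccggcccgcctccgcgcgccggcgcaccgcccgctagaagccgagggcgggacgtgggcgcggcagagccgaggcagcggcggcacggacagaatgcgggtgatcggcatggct
Dnajb11: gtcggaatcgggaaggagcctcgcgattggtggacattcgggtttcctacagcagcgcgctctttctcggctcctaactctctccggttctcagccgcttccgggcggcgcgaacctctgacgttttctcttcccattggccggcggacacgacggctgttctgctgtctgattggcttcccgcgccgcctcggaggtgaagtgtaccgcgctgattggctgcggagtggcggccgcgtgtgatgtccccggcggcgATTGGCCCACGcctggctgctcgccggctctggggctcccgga
Sdf2l1: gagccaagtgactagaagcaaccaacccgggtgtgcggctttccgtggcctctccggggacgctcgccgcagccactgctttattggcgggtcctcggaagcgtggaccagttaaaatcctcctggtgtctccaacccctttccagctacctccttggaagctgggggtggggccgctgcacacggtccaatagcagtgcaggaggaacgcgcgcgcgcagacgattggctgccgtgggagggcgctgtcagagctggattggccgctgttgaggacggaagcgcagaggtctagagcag

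The ERSE was present in the windows of 5 of these 9 genes (Hspa5, Hsp90b1, Calr, Canx and Pdia6), against 37 of the 27025 genes in the table, or 0.137%. Hspa5 held it at bases -65 to -47 from the start and Pdia6 at -98 to -80. Hsp90b1 held it at -212 to -194 and again, on the other strand, at -107 to -89. Calr (chr8:84846882-84847181, minus strand) held it at -162 to -144 on the other strand, and Canx (chr11:50325624-50325923, minus strand) at -145 to -127. The matched letters of these last promoters are given on the gene's strand, with the whole match in capitals.
Calr: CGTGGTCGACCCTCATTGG
Canx: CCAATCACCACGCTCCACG
ERSE-II was present in 1 of the 9 genes, Dnajb11, at bases 7 to 17 after the start, against 12 genes in the table (0.0444%). The UPRE was in 0 of the 9, against 193 genes (0.714%). At least 1 of the 3 motifs was in 6 of the 9, against 239 genes (0.884%), and Pdia3, Pdia4 and Sdf2l1 had no match in these windows. A match describes the letters and is neither a measured binding site nor a cause of any level below.

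The captures held 17444 barcodes in R594C/R594C, 17980 in R594C/+ and 16027 in WT, with a median of 3166 transcript molecules (UMIs) per barcode in R594C/R594C, 3448.5 in R594C/+ and 3483 in WT. Between 68 and 89 barcodes were shared by any pair of captures. After hashtag and doublet calls 41018 cells were clustered, leaving out the 10 genes and all other listed ER folding genes, and 38114 fell into 6 classes named from marker genes. B cells were 21819 of these, T cells 12057, dendritic cells 1250, myeloid cells 1044, NK cells 1023 and plasma cells 921. The clusters called plasma had 5 of their 6 markers, and those called NK had 7 or 8 of 8. The B1 cluster had 4 of 7, follicular clusters 3 or 4 of 5 and T clusters 4 to 9 of 10. Monocyte and neutrophil clusters had 5 to 8 of 8. A replicate held 2943 to 7252 cells and 13045836 to 27167752 UMIs. Doublet calls removed 9.95% of R594C/R594C, 3.45% of R594C/+ and 2.89% of WT B cells. R594C/R594C lost the largest share in each of the 6 classes, up to 21.0% of dendritic cells, against 8.96% of R594C/+ and 3.56% of WT dendritic cells, and in plasma cells the shares were 13.6% in R594C/R594C, 7.07% in R594C/+ and 8.45% in WT. Xist, a transcript of females, was at 1346 CPM in R594C/R594C replicate 2, 1210 to 1360 CPM in R594C/+ replicates 1 to 4 and 1348 CPM in WT replicate 2, against 4.42 CPM in R594C/R594C replicate 1 and 15.6 to 24.9 CPM in WT replicates 1, 3 and 4. Levels are in CPM, the UMI counts of a gene scaled to a common library total of 1000000 UMIs, for the replicate's class, and since only the 3′ end of a transcript is read, levels of different genes are not ranked against each other.

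Plasma cells had the highest levels of 8 of the 10 genes. Together the 10 made up 0.849% ± 0.115 of the UMIs in plasma cells, 0.302% ± 0.025 in dendritic cells, 0.288% ± 0.0325 in NK cells, 0.248% ± 0.0242 in B cells, 0.215% ± 0.0313 in myeloid cells and 0.199% ± 0.0157 in T cells (SD, n = 10 replicates). Per cell the contrast was wider, with 149.8 ± 27.2 UMIs of the 10 genes in a plasma cell and 9.13 ± 1.53 in a B cell. UMIs of all genes were 17599 ± 1665 in a plasma cell and 3660 ± 357 in a B cell. The per-cell contrast thus includes this difference in total. These comparisons of classes are descriptions with no test, because the classes were built from the same cells.

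**Figure D1:**
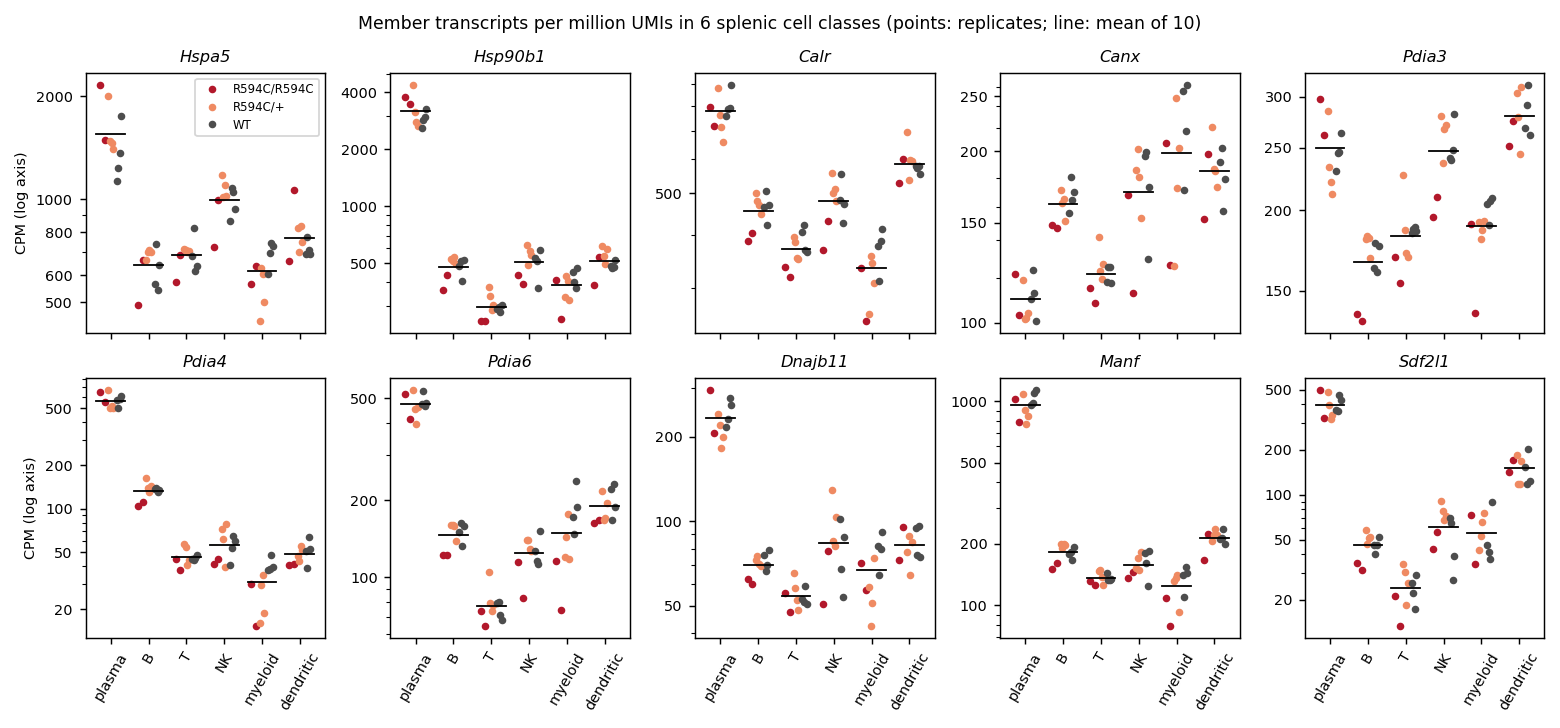
Level in CPM (log axis) of each of the 10 genes in 6 classes of spleen cells; each point is a replicate, coloured by genotype, and the line is the mean of the 10 replicates. Plasma cells lie apart from every other class for Hsp90b1, Pdia4, Pdia6, Dnajb11, Manf and Sdf2l1, whereas Canx is lowest there.

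Among the main chaperones, Hsp90b1 averaged 3182 ± 555 CPM in plasma cells and 514 ± 68.0 CPM in dendritic cells, the next class, a ratio of 6.19. Hspa5 averaged 1545 ± 327 CPM in plasma cells and 996 ± 129 CPM in NK cells, and the ranges of these classes overlapped. NK cells were followed by dendritic (771 ± 118 CPM), T (685 ± 67.5 CPM), B (643 ± 82.6 CPM) and myeloid cells (616 ± 96.4 CPM), whose ranges ran into each other. Hspa5 and Hsp90b1 thus differed in how far plasma cells stood above the rest.

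The partners of Hspa5 followed the plasma pattern. Dnajb11 (ERdj3), a J-domain protein that hands substrates to Hspa5, averaged 233 ± 35.2 CPM in plasma cells, 2.77 times its level in NK cells. Sdf2l1, which binds Dnajb11, averaged 399 ± 66.5 CPM in plasma cells and 150 CPM in dendritic cells, while T cells had 23.8 ± 6.54 CPM. Dendritic cells in turn had 2.46 times the Sdf2l1 of NK cells, with no overlap of replicates. Manf, an ER protein that acts on the nucleotide cycle of Hspa5 and can be secreted, averaged 961 ± 130 CPM in plasma cells, 4.50 times its level in dendritic cells.

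The lectins and Pdia3 stood closer to the other classes in CPM. Calr averaged 776 ± 72.0 CPM in plasma cells, 1.33 times its level in dendritic cells; the ranges of both classes overlapped, although plasma cells were higher within 10 of 10 replicates. Canx, the membrane-bound lectin, was lowest in plasma cells at 110 ± 8.96 CPM, against 199 ± 49.4 CPM in myeloid and 162 ± 10.9 CPM in B cells. Pdia3 (ERp57), the isomerase that works with both lectins and in the loading of MHC class I, averaged 280 ± 24.2 CPM in dendritic cells and 250 ± 27.6 CPM in plasma cells, with overlapping ranges. The remaining isomerases were again plasma genes. Pdia6 (P5) averaged 475 ± 47.1 CPM in plasma cells, 2.51 times its level in dendritic cells, and Pdia4 (ERp72) averaged 563 ± 60.4 CPM, 4.23 times its level in B cells. B cells were second for Pdia4, at 133 ± 16.5 CPM or 2.39 times NK cells, with no overlap of replicates.

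Immunoglobulin transcripts filled 57.3% ± 2.55 of the UMIs in plasma cells and so lowered the CPM of every other gene there. As CPM of UMIs from other genes, plasma cells were highest for 10 of 10 genes. On that scale Hspa5 was at 3616 ± 726 in plasma cells and 998 ± 129 in NK cells, a ratio of 3.62, and Calr at 1821 ± 206 in plasma cells and 585 ± 46.0 in dendritic cells, a ratio of 3.11, with no overlap of replicates for either gene. On the same scale Canx was at 257 ± 18.5 in plasma cells and 199 ± 49.6 in myeloid cells, and Pdia3 at 584 ± 53.9 in plasma cells and 281 ± 24.2 in dendritic cells. The place of Canx and Pdia3 therefore depends on the denominator, while that of the other 8 does not.

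Finer types within the classes differed too. Summed over the 10 genes, plasma cells (8493 ± 1147 CPM) were followed by cDC1, the cross-presenting dendritic cells (4922 ± 1286 CPM), macrophages (3872 CPM, 5 replicates with at least 10 cells), germinal centre B cells (3702 ± 795 CPM) and plasmacytoid dendritic cells (3137 CPM, 6 replicates). B1 (2614 ± 282 CPM), marginal zone (2460 ± 289 CPM) and follicular B cells (2339 ± 201 CPM) lay close together, and neutrophils were lowest at 1053 ± 274 CPM. Type names here mean clusters that carry at least 3 listed markers of that type, not always all of them.

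Pdia4 set marginal zone B cells apart: it averaged 262 ± 16.5 CPM there (238 to 283 CPM), 172 ± 19.9 CPM in B1 cells (131 to 213 CPM), 107 ± 19.2 CPM in germinal centre cells and 92.3 ± 12.7 CPM in follicular cells (72.2 to 119 CPM). The replicates of marginal zone, B1 and follicular cells did not overlap. Sdf2l1 ordered B cells differently, with 149 ± 35.5 CPM in germinal centre cells, 43.3 CPM in B1, 37.5 CPM in follicular and 35.1 CPM in marginal zone cells. Among dendritic cells Sdf2l1 averaged 334 ± 130 CPM in cDC1 and 107 CPM in cDC2, the type that presents mainly to CD4 T cells. Calr averaged 915 ± 238 CPM in cDC1 and 795 ± 90.0 CPM in macrophages (5 replicates). Both means were above the 776 ± 72.0 CPM of plasma cells, with overlapping ranges.

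**Figure D2:**
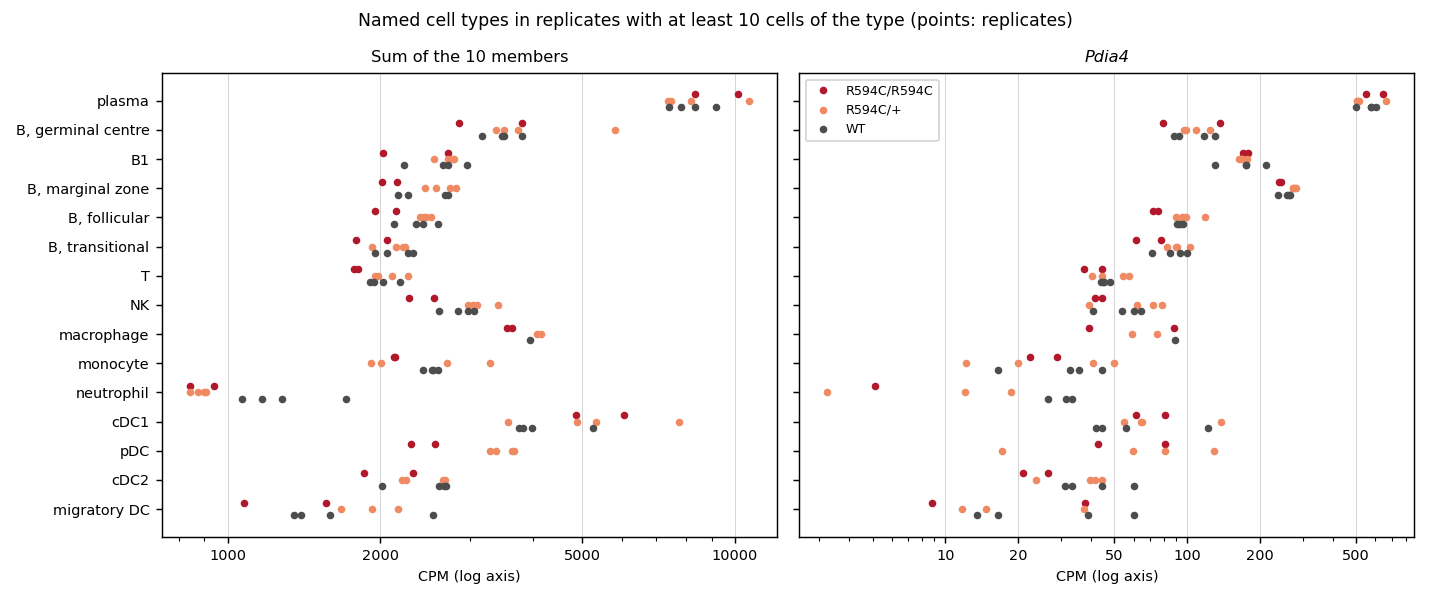
Level in CPM (log axis) of the 10 genes summed (left) and of Pdia4 (right) in the finer cell types; each point is a replicate with at least 10 cells of the type, coloured by genotype. Pdia4 is highest among B cell types in marginal zone cells (238 to 283 CPM), and 3 neutrophil replicates with 0 UMIs of Pdia4 are not drawn.

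The genes whose level ran most like that of the 10 were also genes of the secretory pathway. Over 60 sums of a class in a replicate, and 5788 genes with a mean of at least 20 CPM, the closest outside the set were Ssr2 (Pearson r = 0.954), Creld2 (0.954), Sec11c (0.945), Selenos (0.944) and Txndc5 (0.941). After the mean of each class was taken off, r was 0.548 for Ssr2, 0.513 for Creld2, 0.267 for Sec11c, 0.480 for Selenos and 0.374 for Txndc5, so most of the likeness lay between classes. Within the set r ran to 0.980 for Hsp90b1 and was 0.571 for Pdia3 and -0.303 for Canx. With class means taken off it was 0.551 for Hspa5, the lowest of the 10, 0.826 for Pdia3 and 0.885 for Calr, the highest, and that of Canx was above 0; each of the 10 is itself part of the mean profile. The sums share libraries and plasma cells lie far from the rest, so these values describe and carry no test.

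In B cells, 5 of the 10 genes were lower in R594C/R594C than in R594C/+ past an adjusted p of 0.05 (edgeR's quasi-likelihood test on summed counts, adjusted by Benjamini-Hochberg over 12152 genes), and 0 were higher. The lower share over all genes tested was 1.3%. The 5 were Sdf2l1, Pdia4, Pdia3, Pdia6 and Manf, with log2 folds of -0.66 to -0.34. All 10 had folds below 0, with a median of -0.34, beside 0.00 over all genes. The groups did not overlap for 9 of the 10, the exception being Hspa5, beside 12.9% of all genes that were apart in this direction. At an unadjusted p under 0.05 there were 9, beside 15.5% of all genes in either direction.

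Against WT, R594C/R594C B cells had 0 of the 10 past an adjusted p of 0.05 (all genes, 0.214%), 9 at an unadjusted p under 0.05 (all genes, 7.02%) and 2 lower by DESeq2, Pdia3 and Sdf2l1 (lower over all genes, 0.159%). All 10 folds were again below 0 with a median of -0.25, beside 0.00 over all genes. The groups were apart for 8 of the 10, all but Hspa5 and Hsp90b1, beside 7.31% of all genes. R594C/+ against WT had 0 past the adjusted p (all genes, 0.304%), 2 at an unadjusted p under 0.05 (all genes, 9.18%) and 0 by DESeq2, with 2 folds below 0 and a median of 0.10. These comparisons share samples, so their folds are given side by side and their likeness is no further evidence.

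Among the main chaperones in B cells, Hsp90b1 had 360.2 and 436 CPM in R594C/R594C, 526, 514, 538 and 499 CPM in R594C/+, and 483, 516, 403 and 522 CPM in WT. Both R594C/R594C replicates were below every R594C/+ replicate, and replicate 2 was above the lowest WT replicate. The fold was -0.38 ± 0.11 (adjusted p = 0.0992) against R594C/+ and -0.26 ± 0.11 (adjusted p = 0.654) against WT. Hspa5 had 493 and 667 CPM in R594C/R594C, 666, 703, 713 and 701 CPM in R594C/+, and 564, 740.3, 542 and 641 CPM in WT. Its replicates overlapped in each comparison, since R594C/R594C replicate 1 was the lowest of the 10 and replicate 2 lay among the others, and the fold against WT was -0.09 ± 0.16 (adjusted p = 0.951). Against R594C/+ it was -0.27 ± 0.16 (adjusted p = 0.497). With R594C/R594C replicate 1 left out the fold against WT was 0.13, and with replicate 2 left out it was -0.34.

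Of the partners of Hspa5, Sdf2l1 (chr16:17130138-17132383) had 35.1 and 31.3 CPM in R594C/R594C, 58.2, 47.2, 51.2 and 52.3 CPM in R594C/+, and 46.3, 40.5, 46.1 and 52.2 CPM in WT. Both R594C/R594C replicates were below the other 8. The fold was -0.66 ± 0.10 (adjusted p = 0.00137) against R594C/+ and -0.46 ± 0.10 (adjusted p = 0.0513) against WT. Manf (chr9:106888753-106891938) had 150.0 and 162 CPM in R594C/R594C, 200.3, 191, 200.3 and 197 CPM in R594C/+, and 179, 183, 167 and 193 CPM in WT, with both R594C/R594C replicates again lowest. Its fold was -0.34 ± 0.07 (adjusted p = 0.0107) against R594C/+ and -0.20 ± 0.07 (adjusted p = 0.405) against WT. Dnajb11 had 62.1 and 59.7 CPM in R594C/R594C, 72.6, 75.0, 70.7 and 69.4 CPM in R594C/+, and 75.7, 66.4, 69.7 and 79.2 CPM in WT, also with no overlap, but its folds of -0.24 ± 0.07 against R594C/+ (adjusted p = 0.0961) and -0.24 ± 0.07 against WT did not pass.

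The isomerases Pdia4 and Pdia6, which form and rearrange disulfide bonds, were read next. Pdia4 (chr6:47796141-47813512) had 104 and 111 CPM in R594C/R594C, 163, 139.7, 131 and 144 CPM in R594C/+, and 136, 139, 129.9 and 134 CPM in WT. Pdia6 (chr12:17266589-17284785) had 123 and 122 CPM in R594C/R594C, 159.7, 161, 159 and 139 CPM in R594C/+, and 151, 163, 133 and 158 CPM in WT. For both genes the R594C/R594C replicates were below the other 8. The fold of Pdia4 was -0.43 ± 0.07 (adjusted p = 0.00513) against R594C/+ and -0.32 ± 0.07 (adjusted p = 0.101) against WT, and that of Pdia6 was -0.34 ± 0.08 (adjusted p = 0.0332) against R594C/+ and -0.30 ± 0.08 (adjusted p = 0.254) against WT.

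In the calnexin cycle, Pdia3 (chr2:121413902-121438687) had 138 and 135 CPM in R594C/R594C, 180.4, 182, 181 and 169 CPM in R594C/+, and 163, 178, 160.5 and 176 CPM in WT. Its R594C/R594C replicates were the lowest, and its fold was -0.39 ± 0.06 (adjusted p = 0.00421) against R594C/+ and -0.30 ± 0.06 (adjusted p = 0.0553) against WT. Calr had 387 and 403 CPM in R594C/R594C, 501, 479, 470.0 and 447 CPM in R594C/+, and 464, 506, 422 and 468 CPM in WT, likewise apart, with folds of -0.27 ± 0.07 (adjusted p = 0.0584) against R594C/+ and -0.23 ± 0.07 (adjusted p = 0.366) against WT. Canx had 149 and 147 CPM in R594C/R594C, 171, 162, 165 and 151 CPM in R594C/+, and 156, 181, 164 and 169.5 CPM in WT, with folds of -0.14 ± 0.07 (adjusted p = 0.318) against R594C/+ and -0.17 ± 0.07 (adjusted p = 0.577) against WT. Summed over the 10 genes, B cells held 0.214% ± 0.0194 of UMIs in R594C/R594C (n = 2), 0.265% ± 0.0057 in R594C/+ (n = 4) and 0.249% ± 0.0208 in WT (n = 4). The R594C/R594C replicates were at 0.200% and 0.2274%, below every R594C/+ replicate. Replicate 2 was above WT replicate 3 (0.2237%), so the sums overlapped WT.

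**Figure D3:**
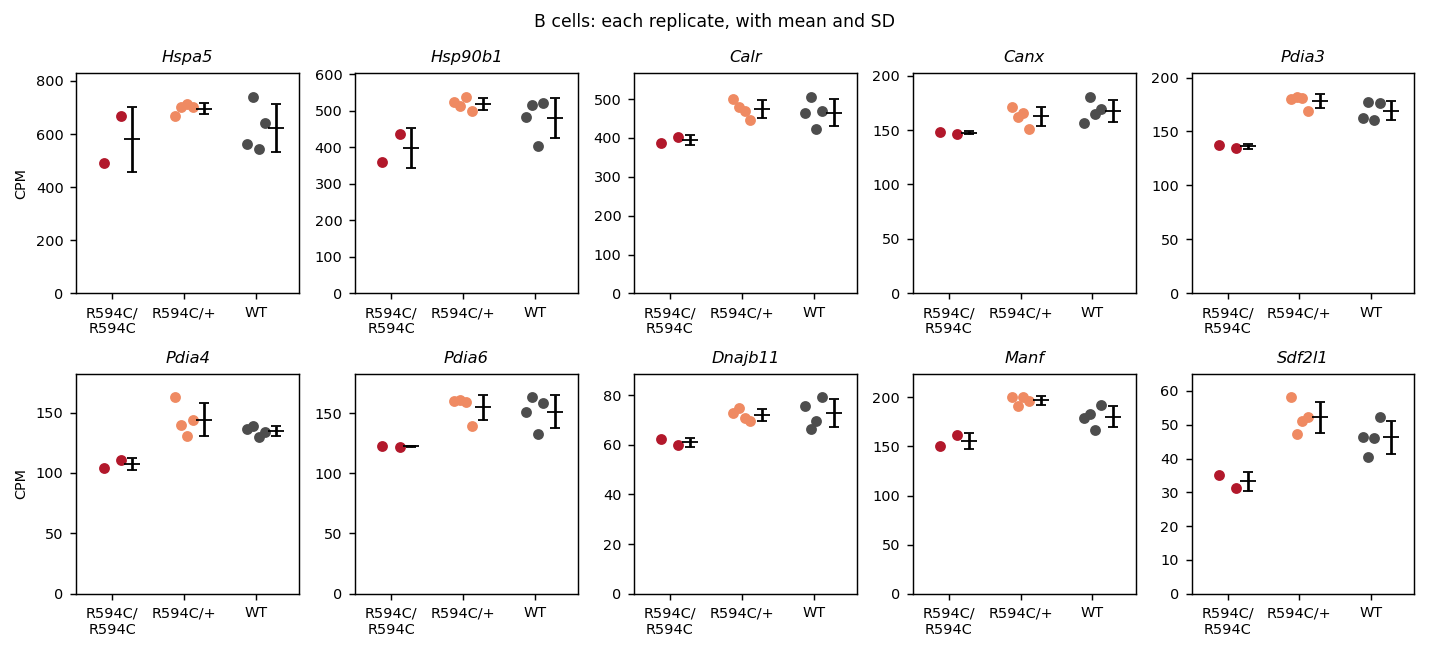
Level in CPM of the 10 genes in B cells by genotype; each point is a replicate, and the bar beside the points is the group's mean with its SD. Both R594C/R594C replicates lie below the R594C/+ replicates for 9 of the 10 genes, the exception being Hspa5.

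The B cell calls changed when single replicates were left out and with the clusters taken, as did the share of all genes called lower, given here in brackets. Without R594C/R594C replicate 1 the call against R594C/+ was left for Sdf2l1 alone (0.0957%), and without WT replicate 3 there were 7 (1.76%). A fit without 1 R594C/R594C replicate leaves 1 sample in that group, which is assumed to vary like the other groups. A call lost in such a fit therefore does not by itself show a weaker effect. The fit without R594C/R594C replicate 2 also leaves 1 sample, and it kept more calls than the fit without replicate 1. The source of this difference was not tested. Against WT Pdia4 and Sdf2l1 passed without R594C/+ replicate 1 (0.0912%), Pdia3 and Pdia6 without WT replicate 3 (0.173%), and Sdf2l1 alone without R594C/+ replicate 2 (0.066%) or WT replicate 2 (0.0662%). With a term for sex by Xist in the fit, Pdia3, Pdia4 and Sdf2l1, or 3 of the 10, passed against WT (0.165%) and 5 against R594C/+ (1.89%), Dnajb11 in place of Pdia6. Within follicular clusters alone 3 passed against R594C/+, namely Hsp90b1, Pdia4 and Manf (0.393%). Over all settings tried, the fold against R594C/+ was -0.41 to -0.28 for Pdia3 and -0.49 to -0.37 for Pdia4.

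The shares of the finer types in the B class are given by genotype and were not tested. Follicular cells were 73.8% and 74.7% of R594C/R594C, 53.6% to 72.2% of R594C/+ and 63.5% to 71.8% of WT B cells, with R594C/R594C highest. Marginal zone cells were 7.06% and 9.25% of R594C/R594C B cells, 8.45% to 18.6% of R594C/+ and 9.30% to 12.6% of WT B cells, and B1 cells were 5.22% and 6.09% of R594C/R594C, 8.16% to 14.2% of R594C/+ and 3.56% to 12.4% of WT B cells. For marginal zone cells R594C/R594C lay below WT and overlapped R594C/+, and for B1 cells it lay below R594C/+ and inside the WT range. Germinal centre cells were 1.383% and 1.028% of R594C/R594C, 1.497% to 3.244% of R594C/+ and 0.994% to 2.987% of WT B cells. R594C/R594C again lay below R594C/+ and inside the WT range, and for transitional cells it overlapped both. Germinal centre cells averaged 311.6 CPM of Pdia3 and 284.9 CPM of Pdia6, against 151.3 and 138.7 CPM in follicular cells. The part of these shares in the B cell result was not tested. Within follicular cells Pdia4 was 72.2 and 75.5 CPM in R594C/R594C, 89.6 to 119 CPM in R594C/+ and 90.5 to 96.0 CPM in WT. Within marginal zone cells it was 240.3 and 245 CPM in R594C/R594C, 273 to 283 CPM in R594C/+ and 238 to 267 CPM in WT. Follicular cells were thus apart from both other genotypes for Pdia4, and marginal zone cells from R594C/+ alone. The sum of the 10 genes in marginal zone cells was 2018 and 2160 CPM in R594C/R594C, 2443 to 2819 CPM in R594C/+ and 2167 to 2723 CPM in WT. In follicular cells the sum was 1948 and 2146 CPM in R594C/R594C, 2392 to 2512 CPM in R594C/+ and 2125 to 2593 CPM in WT. R594C/R594C was thus below R594C/+ in both types but overlapped WT in follicular cells, and in B1, transitional and germinal centre cells it overlapped both.

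Transcripts of other cells were read in the same B cell sums. The 6 plasma markers together stood at 414 and 415 CPM in R594C/R594C, 428 to 494 CPM in R594C/+ and 339 to 476 CPM in WT, with at least 5 of 6 above 0. If Jchain in B cells came wholly from plasma cells, their RNA would account for 1.40% to 1.51% of the 10 genes' summed CPM in R594C/R594C, 1.82% to 2.39% in R594C/+ and 1.08% to 2.47% in WT. The 7 erythroid markers, of which 6 or 7 were above 0 in every replicate, stood at 225 and 243 CPM in R594C/R594C, 185 to 229 CPM in R594C/+ and 78.1 to 97.2 CPM in WT. The 8 neutrophil markers, of which 6 to 8 were above 0, stood at 70.1 and 71.4 CPM in R594C/R594C, 128 to 137 CPM in R594C/+ and 26.9 to 35.4 CPM in WT. The part of erythroid and neutrophil RNA in the result was not tested.

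In plasma cells, where the sum of the 10 genes was highest, 0 passed an adjusted p of 0.05 in any comparison. For R594C/R594C against WT the share of all genes past it was 0.172%, 1 of the 10 had an unadjusted p under 0.05 (all genes, 8.01%) and DESeq2 called 0. For R594C/+ against WT these were 0 of 10 (all genes, 0.132%), 0 of 10 (all genes, 5.6%) and 0, and for R594C/R594C against R594C/+ 0 of 10 (all genes, 0.066%), 0 of 10 (all genes, 7.22%) and 0. The median fold over the 10 was -0.11 for R594C/R594C against WT, and it moved to 0.07 when R594C/R594C replicate 2 was left out and to -0.23 when replicate 1 was.

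The members differed among themselves in plasma cells. Hspa5 had 2154 and 1490.2 CPM in R594C/R594C, 2003, 1477, 1455 and 1401 CPM in R594C/+, and 1128, 1233, 1359.7 and 1747 CPM in WT, a fold of 0.28 ± 0.23 (adjusted p = 0.849) for R594C/R594C against WT. R594C/R594C replicate 1 and R594C/+ replicate 1 were the 2 highest, and the groups overlapped. Hsp90b1 had 3768 and 3470.1 CPM in R594C/R594C, 4359, 3151, 2796 and 2658 CPM in R594C/+, and 2581, 2835, 2956 and 3247 CPM in WT, with both R594C/R594C replicates above the 4 WT replicates on this scale and a fold of 0.19 ± 0.18 (adjusted p = 0.881). Manf had 1027 and 787 CPM in R594C/R594C, 1089, 907, 776 and 846 CPM in R594C/+, and 959.9, 984, 1101 and 1134 CPM in WT. Its fold of -0.33 ± 0.13 (unadjusted p = 0.017, adjusted p = 0.496) was the 1 with an unadjusted p under 0.05.

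The folds use edgeR's TMM scaling, whose factors were 1.13 and 1.07 in R594C/R594C plasma cells, 0.931 to 0.962 in R594C/+ and 0.976 to 1.07 in WT, so that folds of R594C/R594C lie below those of the plain CPM and folds of R594C/+ against WT above them. Immunoglobulin UMIs were 53.1% ± 1.59 of the total in R594C/R594C, 59.3% ± 0.428 in R594C/+ and 57.3% ± 1.09 in WT plasma cells. After TMM scaling the R594C/R594C replicates lay below WT for Calr, Manf and Pdia6, 3 of 10 beside 7.5% of all genes, and below R594C/+ for Canx, 1 of 10 beside 9.89%. In plain CPM the groups overlapped for each of these genes. Calr had 794 and 719 CPM in R594C/R594C, 881, 762, 714 and 659 CPM in R594C/+, and 758, 786, 789.7 and 894 CPM in WT, and a fold of -0.22 ± 0.11 (adjusted p = 0.659) against WT. Pdia4, whose level in R594C/R594C B cells was the lowest of the 3 genotypes, had 645 and 548 CPM in R594C/R594C, 667, 504, 513 and 504 CPM in R594C/+, and 573, 501, 576 and 602 CPM in WT, and a fold of -0.04 ± 0.12 (adjusted p = 0.965). Sdf2l1 had 498 and 324 CPM in R594C/R594C, 487, 394, 322 and 339 CPM in R594C/+, and 369, 363, 462 and 427 CPM in WT, and a fold of -0.11 ± 0.20 (adjusted p = 0.937). Replicates 1 and 2 of R594C/R594C were far apart for Sdf2l1 and on both sides of the WT range.

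The difference between R594C/R594C and WT was itself compared between plasma and B cells, with each replicate as a block. The interaction passed an adjusted p of 0.05 for 0 of the 10, beside 0.0683% of 11721 genes, and 4 had an unadjusted p under 0.05, beside 5.94% of all genes. In these 4 the plasma fold exceeded the B fold, by 0.46 ± 0.20 for Hsp90b1, 0.37 ± 0.14 for Pdia3, 0.34 ± 0.15 for Sdf2l1 and 0.28 ± 0.13 for Pdia4, with a lowest adjusted p of 0.676. DESeq2 was not run on this interaction. With immunoglobulin genes left out, 0 passed and 3 had an unadjusted p under 0.05 (all genes, 6.25%). The genotype difference in B cells is therefore not shown to differ from that in plasma cells.

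**Figure D4:**
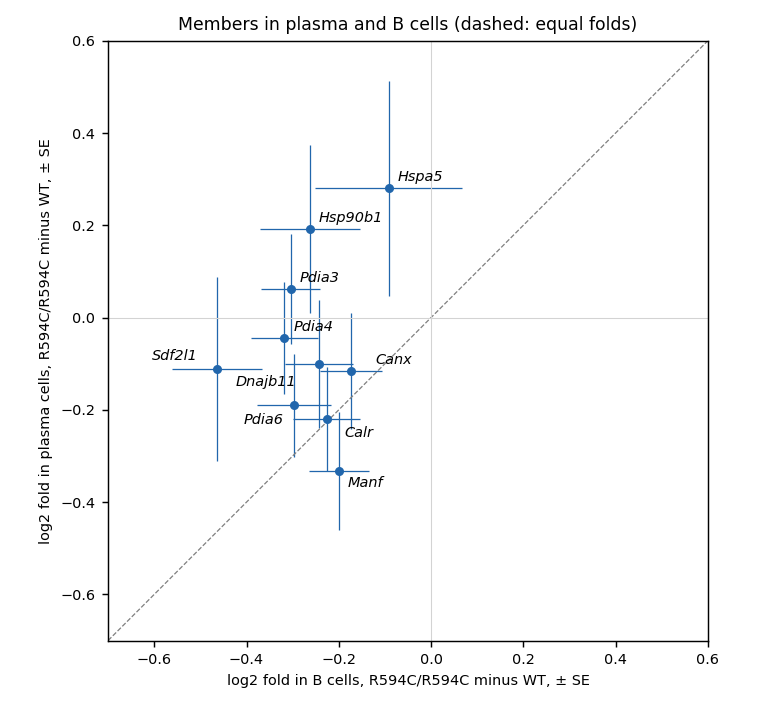
Log2 fold of R594C/R594C minus WT for the 10 genes in plasma cells (vertical axis) and in B cells (horizontal axis), each with its SE from edgeR; on the dashed line both folds are equal. All 10 lie left of 0 on the B cell axis, and Hspa5, Hsp90b1 and Pdia3 lie above 0 on the plasma axis.

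In T cells 0 of the 10 passed in the comparisons of R594C/R594C with WT (all genes, 0.0877%), R594C/+ with WT (0.202%) and R594C/R594C with R594C/+ (0.0526%), and DESeq2 called 0 in each. At an unadjusted p under 0.05 there were 3 (all genes, 3.54%), 0 (6.19%) and 2 (7.64%) in the same order. All 10 folds of R594C/R594C were below 0 against WT, with a median of -0.16. After TMM scaling R594C/R594C lay below WT for 6 of 10 (Hsp90b1, Calr, Canx, Pdia3, Pdia4 and Manf), beside 6.4% of all genes, and below R594C/+ for 5 (Hsp90b1, Calr, Canx, Pdia3 and Pdia6), beside 7.39%. In plain CPM Pdia4 overlapped WT and Pdia6 overlapped R594C/+. Hsp90b1 had 250.1 and 249 CPM in R594C/R594C, 375, 336, 285 and 303.5 CPM in R594C/+, and 287, 294, 277 and 303.4 CPM in WT, with R594C/R594C lowest, and folds of -0.33 ± 0.09 (unadjusted p = 0.00188, adjusted p = 0.448) against R594C/+ and -0.23 ± 0.09 (adjusted p = 1) against WT. Pdia3 had 169 and 154 CPM in R594C/R594C, 227, 187, 172 and 169 CPM in R594C/+, and 184, 187, 188 and 186 CPM in WT, again with R594C/R594C lowest, at 168.9 CPM in replicate 1 beside 169.2 CPM in the lowest R594C/+ replicate.

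In NK cells 0 of the 10 passed for R594C/R594C against WT (all genes, 0.0185%), R594C/+ against WT (0.222%) and R594C/R594C against R594C/+ (0.129%), and DESeq2 called 0 in each. At an unadjusted p under 0.05 there were 3 (all genes, 4.9%), 1 (7.15%) and 7 (5.16%). All 10 folds of R594C/R594C were below 0, with medians of -0.28 against WT and -0.41 against R594C/+. After TMM scaling R594C/R594C lay below WT for Pdia3, 1 of 10 beside 5.86% of all genes, and below R594C/+ for 8 of 10, all but Canx and Pdia4, beside 6.14%. Pdia3 had 195 and 209 CPM in R594C/R594C, 280.4, 237, 267 and 272 CPM in R594C/+, and 241, 239, 248 and 282 CPM in WT, with R594C/R594C lowest. Hsp90b1 had 437 and 391 CPM in R594C/R594C, 625, 489, 579.9 and 556 CPM in R594C/+, and 536, 518, 372 and 589.5 CPM in WT, and a fold of -0.44 ± 0.14 (unadjusted p = 0.00211, adjusted p = 0.476) against R594C/+. WT replicate 3 was below both R594C/R594C replicates for it.

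In myeloid cells 0 of the 10 passed for R594C/R594C against WT (all genes, 0%), R594C/+ against WT (0%) and R594C/R594C against R594C/+ (0.0147%), and DESeq2 called 0 in each. At an unadjusted p under 0.05 there were 1 (all genes, 4.27%), 0 (10.9%) and 2 (6.69%). After TMM scaling R594C/R594C lay below WT for Pdia3, Pdia4, Pdia6 and Manf, 4 of 10 beside 7.13% of all genes, and below R594C/+ for Calr and Pdia6, 2 of 10 beside 5.5%. In plain CPM Pdia3 overlapped WT and Calr overlapped R594C/+. Pdia6 had 116 and 74.5 CPM in R594C/R594C, 119.7, 144, 176 and 118 CPM in R594C/+, and 172, 148, 238 and 188 CPM in WT, with R594C/R594C lowest, and a fold of -0.87 ± 0.23 (unadjusted p = 0.00167, adjusted p = 0.652) against WT. Neutrophils, which had the lowest sum of the 10 genes, were 25.7% and 54.0% of R594C/R594C, 28.7% to 57.5% of R594C/+ and 32.5% to 54.7% of WT myeloid cells. Their sum was 843 and 939.6 CPM in R594C/R594C, 843 to 905 CPM in R594C/+ and 1069 to 1710.3 CPM in WT. WT thus lay above both other genotypes, which was not tested. The neutrophil cluster with the lowest median (1737 UMIs) held 123 of 151 R594C/R594C, 85 of 178 R594C/+ and 92 of 99 WT neutrophils. The part of neutrophils in the class result was not tested.

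In dendritic cells 0 of the 10 passed for R594C/R594C against WT (all genes, 0.0114%), R594C/+ against WT (0.0341%) and R594C/R594C against R594C/+ (0.0114%), and DESeq2 called 0 in each. None had an unadjusted p under 0.05 in edgeR's test, beside 4.25%, 6.98% and 4.78% of all genes. After TMM scaling R594C/R594C lay below WT for 0 of 10, beside 5.6% of all genes, and below R594C/+ for Pdia4, 1 of 10 beside 6.78%. Hspa5 had 661 and 1063 CPM in R594C/R594C, 825, 701, 837 and 752 CPM in R594C/+, and 692, 777, 713 and 694 CPM in WT, so that R594C/R594C replicates 1 and 2 held the lowest and the highest value. The median fold against WT was -0.08, and leaving out R594C/R594C replicate 1 gave 0.08, leaving out replicate 2 gave -0.23.

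**Figure D5:**
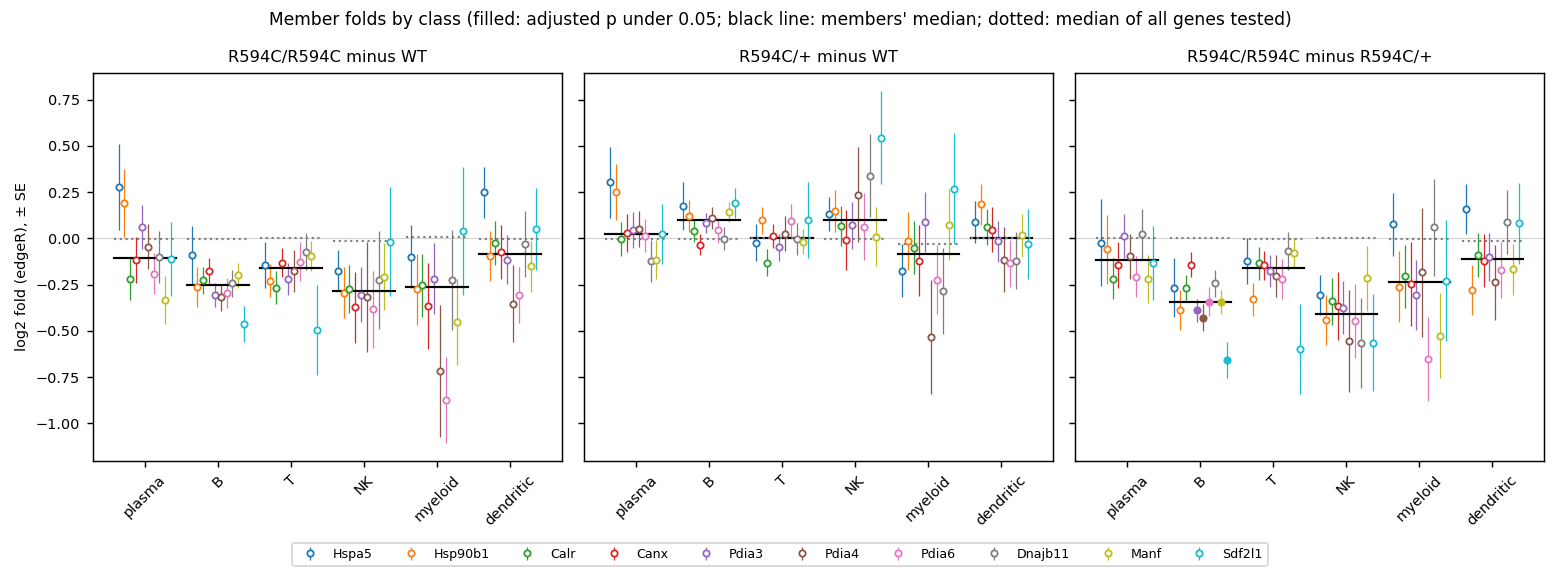
Log2 fold with its SE (edgeR) of each of the 10 genes in 6 classes for the 3 comparisons of genotypes; filled points passed an adjusted p of 0.05, the black line is the median of the 10 and the dotted line that of all genes tested. The 5 filled points are in B cells of R594C/R594C minus R594C/+, at -0.66 to -0.34.

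Of 32 other ER folding genes, 29 were tested in B cells. By edgeR 0 passed for R594C/R594C against WT, with 7 at an unadjusted p under 0.05 (all genes, 7.02%), and 0 passed for R594C/+ against WT, with 2 (all genes, 9.18%); DESeq2 called 0 in both. Against WT 24 of the 29 folds of R594C/R594C were below 0, with a median of -0.12. In R594C/R594C 3 genes were lower than in R594C/+ (all genes, 1.3%): Creld2, a disulfide isomerase of the ER, at -0.61 ± 0.11 (adjusted p = 0.0102), Erp44, which retains secretory proteins with free thiols, at -0.33 ± 0.08 (adjusted p = 0.0286), and the peroxidase Prdx4 at -0.37 ± 0.09 (adjusted p = 0.0449). Creld2 had 22.6 and 21.0 CPM in R594C/R594C, 33.2, 28.9, 39.0 and 31.4 CPM in R594C/+, and 28.4, 28.7, 28.6 and 35.5 CPM in WT, with R594C/R594C lowest. The call of each of the 3 was lost without R594C/R594C replicate 1 or 2 (which leaves 1 sample in that group), with B cells gated by antibody tags and within follicular clusters. Those of Erp44 and Prdx4 were also lost without R594C/+ replicate 1 or 2, and that of Prdx4 further without R594C/+ replicate 3 or 4 or WT replicate 1 or 4, with the sex term, by DESeq2, with doublets kept, at a coarser clustering and under another hashtag rule.

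In plasma cells 28 of the 32 were tested, and 1, Dnajb9, was lower in R594C/R594C than in both other genotypes. Dnajb9 (ERdj4) is a J-domain protein of the ER that is also known to restrain IRE1. It had 168 and 157 CPM in R594C/R594C, 219.9, 234, 229 and 237 CPM in R594C/+, and 237, 209.5, 194 and 282 CPM in WT, with R594C/R594C lowest. Its fold was -0.63 ± 0.13 (adjusted p = 0.0435) against WT and -0.72 ± 0.13 (adjusted p = 0.0388) against R594C/+. Both calls were lost without any 1 R594C/+ replicate or any 1 R594C/R594C replicate (which leaves 1 sample in that group), and that against WT also without WT replicate 1 or 4, with the sex term and without the cycling plasma cluster, while the folds kept between -0.81 and -0.50 in every setting tried. In B cells Dnajb9 had a fold of 0.16 ± 0.08 (adjusted p = 0.714) against WT.

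The other ER folding genes had lower folds in plasma cells than the 10 genes of the set. For R594C/R594C against WT 23 of 28 folds were below 0 with a median of -0.39, beside 7 of 10 and -0.11 for the set and 0.00 over all genes. At an unadjusted p under 0.05, 14 of the 28 were lower (all genes, 4.24%) and 1 was higher, beside 1 of the 10 in the set, and DESeq2 called 3 lower (all genes, 0.398%). For R594C/R594C against R594C/+ 24 folds were below 0, the median was -0.32 (-0.19 without R594C/R594C replicate 2), 10 were lower (all genes, 3.85%) and 1 higher at an unadjusted p under 0.05, and DESeq2 called 4 lower (4.39% of the 524 genes it gave an adjusted p). For R594C/+ against WT 16 were below 0 with a median of -0.02, edgeR and DESeq2 called 0, and 3 had an unadjusted p under 0.05 by edgeR. The difference between the set and the other genes was not tested.

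In T, NK, myeloid and dendritic cells 20 to 29 of the 32 were tested, and 0 passed in any comparison of genotypes by edgeR or by DESeq2. In T cells 6 had an unadjusted p under 0.05 by edgeR for R594C/R594C against R594C/+, all lower (all genes in either direction, 7.64%). Each of the other comparisons had 0 to 4 (all genes in either direction, 3.54% to 10.9%). Of 22 chaperones of the cytosol and mitochondria, all were tested in each class, and 0 passed in any comparison by edgeR or by DESeq2. In B cells 6 were lower at an unadjusted p under 0.05 by edgeR for R594C/R594C against R594C/+ (all genes, 8.59% lower and 15.5% in either direction). Each of the other comparisons had 0 to 4 (all genes in either direction, 3.54% to 10.9%). In B cells the median fold of these 22 was -0.03 for R594C/R594C against WT, 0.14 for R594C/+ against WT and -0.17 for R594C/R594C against R594C/+. The 10 ER genes had -0.25, 0.10 and -0.34 there in the same order. In plasma cells the 22 had medians of 0.13, 0.14 and -0.06.

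The gene carrying the R594C change and its splicing substrate were read for context; 3′ counts check neither genotype nor splicing. Over all 10 replicates Ern1 was lowest of the 6 classes in B cells, at 2.68 ± 0.813 CPM. It was highest in NK cells, at 78.8 ± 18.9 CPM. By genotype Ern1 averaged 30.7 ± 7.23 CPM in R594C/R594C, 23.5 ± 3.93 CPM in R594C/+ and 23.2 ± 8.51 CPM in WT plasma cells. Xbp1 averaged 1521 ± 109 CPM in R594C/R594C, 1205 ± 156 CPM in R594C/+ and 1152 ± 134 CPM in WT plasma cells. In B cells Xbp1 averaged 59.3 ± 5.11 CPM in R594C/R594C, 70.6 ± 2.26 CPM in R594C/+ and 61.7 ± 7.03 CPM in WT. Neither gene passed an adjusted p of 0.05 in edgeR's test in any of the 6 classes. For Xbp1 in NK cells R594C/R594C averaged 55.5 ± 9.25 CPM, R594C/+ 85.9 ± 10.7 CPM and WT 81.2 ± 14.6 CPM. Its folds in R594C/R594C against R594C/+ were -0.68 ± 0.24 (unadjusted p = 0.00782, adjusted p = 0.785) in NK cells and -0.26 ± 0.09 (unadjusted p = 0.0114, adjusted p = 0.161) in B cells, and against WT in NK cells -0.55 ± 0.26 (unadjusted p = 0.0373, adjusted p = 0.953). For R594C/+ against WT Xbp1 had folds of 0.21 ± 0.08 (unadjusted p = 0.0154, adjusted p = 0.3955) in B cells and 0.33 ± 0.12 (unadjusted p = 0.0133, adjusted p = 0.561) in dendritic cells. Ern1 in myeloid cells had folds of -1.05 ± 0.41 (unadjusted p = 0.0208, adjusted p = 0.377) for R594C/+ against WT and 0.95 ± 0.43 (unadjusted p = 0.043, adjusted p = 0.707) for R594C/R594C against R594C/+. Xbp1 in plasma cells had a fold of 0.29 ± 0.11 (unadjusted p = 0.0141, adjusted p = 0.456) for R594C/R594C against WT.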

How the data were processed

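The authors deposited raw UMI counts of 55385 genes, 191 antibodies and 24 hashtags per barcode; per the file headers they came from Cell Ranger 5.0.0, and the submitters' processing notes name Cell Ranger, STAR, Seurat 3.1.4 and mm10. Barcodes under 200 genes or over 10% mitochondrial UMIs were dropped. Hashtags gave the replicates (Seurat 5.3.0, HTODemux, quantile 0.99), and doublets of a single hashtag were sought with simulated doublets as the yardstick. Cells were clustered on 2000 variable genes, 30 components and 20 neighbours (scikit-learn 1.9.0, leidenalg 0.10.2, resolution 1.5), which gave 42 clusters. Clusters were named from fixed markers at 2-fold or more in at least 10% of cells, with at least 3 markers. Counts were summed per replicate and class (at least 10 cells).

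Genotypes were compared with edgeR 4.0.16 (TMM scaling, filterByExpr, robust quasi-likelihood fit), all replicates in 1 fit, and p-values were adjusted by Benjamini-Hochberg over all genes; SE is the absolute fold over the square root of F. DESeq2 1.42.0 was an alternative, as were other filters, hashtag rules, gates and clusterings, a sex term, a replicate block and each replicate left out. On simulated counts for R594C/R594C minus WT, 81.1% of genes changed by 0.5 on the log2 scale at 20 CPM or more were recovered in B cells (12152 genes in all), 2.44% in plasma cells (7576 genes) and 9.68% in NK cells (5411 genes). Genes changed by 1 on the log2 scale at that level were recovered at 95.9%, 50% and 57.3%. Motifs were matched to RefSeq promoters of GRCm38.p6. The 10 genes, the lists and the markers were chosen with earlier results of these data known. Named genes outside the 10 were list genes past 0.05, Ern1, Xbp1 and the 5 genes most like the set. Python 3.11.15 and R 4.3.3 were used.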

Additional observations from a re-analysis of the deposited data

Results flagged for a closer look

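Of 120 groups of 4 replicates (10 genes, 6 classes, R594C/+ and WT), 6 held a replicate whose gap to its nearest neighbour passed 0.829 of the group's range; chance gives about 5% of groups. In R594C/+ plasma cells replicate 1 was the highest for Hspa5 at 2003 CPM, with the next at 1477 CPM. It was also the highest for Pdia4 at 666.7 CPM (next 513.1 CPM) and for Canx at 118.8 CPM (next 104 CPM). In R594C/+ B cells replicate 4 was the lowest for Pdia6 at 139.2 CPM (next 159.3 CPM) and for Pdia3 at 168.6 CPM (next 180.4 CPM). In WT T cells replicate 1 was the highest for Manf at 143.4 CPM (next 134.1 CPM).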

How the results depend on the processing

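In B cells the count of the 10 genes past an adjusted p of 0.05 moved with several choices. For R594C/R594C against WT it was 0 in the reported test, 2 with DESeq2, 3 with a sex term from expressed Xist, 5 with no filter on low counts (lower over all genes, 0.258%), and 0 to 2 without single replicates. For R594C/R594C against R594C/+ it was 5 in the reported test, 1 with B cells gated by antibody tags (Pdia3; lower over all genes, 0.363%), 3 within follicular clusters, and 1 to 7 without single replicates. The antibody gates were set after seeing the tags, and 19947 of the 21819 B cells passed the B cell gate. Among others, 201 of the 921 plasma cells and 1109 cells of no class passed it too. A plasma cell held a mean of 149.8 UMIs of the 10 genes, against 9.13 in a B cell. The part of these added cells in the gated result was not tested. For R594C/R594C against R594C/+ the count was 5 to 7 with the other settings, among them DESeq2 (7, with 1.51% of all genes lower) and no filter (7, with 1.38%). The cause of these moves was not tested. In the other 16 comparisons of genotypes the count was 0 in every setting tried. Plasma cells were highest for 8 of the 10 genes by CPM, also without single replicates, and for 10 of 10 as CPM of UMIs from other genes or per cell. Counts per cell are not scaled for the larger UMI total of a plasma cell. No called fold turned its sign.

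No label ties a replicate number to a shared source. Same-numbered replicates correlated at -0.402 to 0.664, with medians by class of -0.0372 to 0.14, against medians of -0.0588 to 0.0535 for different numbers, and not every pair was above 0.1. With a replicate block 6 of the 10 passed in B cells for R594C/R594C against R594C/+ (lower over all genes, 0.996%) and 0 against WT. In the block, the B cell calls of Creld2, Erp44 and Prdx4 and both plasma calls of Dnajb9 were lost.

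In plasma and NK cells changes of 0.5 on the log2 scale were seldom recovered in simulated counts (T, myeloid and dendritic cells were not simulated), so 0 calls does not show that levels were equal. R594C/R594C has 2 replicates in 1 capture, and the SEs cover neither staining nor capture.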
